A study of Mus musculus with 8 samples.

Results

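Complement is a cascade of plasma proteins that tags particles for uptake, draws in immune cells and, at its end, builds a pore in membranes. It is started by the classical, lectin or alternative route. All of these converge on cleavage of C3, and the terminal components C5 to C9 then assemble into the membrane attack complex. Most plasma complement comes from the liver, but adipose tissue makes several components itself and is the main source of factor D (adipsin, encoded by Cfd), the protease that cuts factor B.

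The 9 genes described here are complement components and regulators: C6, C7, C3, C4b, C2, Cfb, Cfp, Serping1 and Cd55. They were matched by symbol among the 23212 genes of the count tables, and all 9 had enough reads to be tested. They were taken up because C6 was lower in knockout mice. The difference in C6 is therefore a description, as are all member values from the comparison of the genotypes.

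The libraries came from RNA of the entire perigonadal fat pad of C57BL/6 mice, 8 in all. The knockout group held 4 mice with an adipocyte-specific gene knockout, and the wild-type group 4 mice matched to them for age and weight. Mice of both groups were 20 weeks old and had eaten a 45% fat diet for 12 weeks from the age of 8 weeks. The labels do not give the promoter that drove the recombination, and cells other than adipocytes are not the target of such a deletion. The libraries held 46444435 to 51431956 counts. Markers of adipocytes were abundant in every library, with a summed level of 29522 to 41345 CPM (TMM-scaled counts relative to library size) in knockout mice and 30692 to 43778 CPM in wild-type mice. Knockout mouse 2 and wild-type mouse 3 stood apart through most listed epithelial and ciliated cell genes. Foxj1 was at 26.1 CPM in knockout mouse 2, 7.97 CPM in wild-type mouse 3 and 0.287 CPM or less in the others. Krt7 of that list did not set them apart, at 8.60 and 13.4 CPM in these mice. It was highest in knockout mouse 1 (42.3 CPM) and wild-type mouse 2 (53.5 CPM). Member fold changes that move by more than 1.5 times without knockout mouse 2 and wild-type mouse 3 are given beside the result. In whole tissue, fewer cells of a type and less RNA per cell cannot be told apart.

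By the deposited annotation (mm10), C6 and C7 are neighbours on chromosome 15, with 184716 bases between them. C6 runs from position 4727210 to 4804045 on the plus strand and C7 from 4988762 to 5063773 on the minus strand. On chromosome 17, all on the minus strand, lie C4b (34728381 to 34743897), Cfb (34856374 to 34862514), C2 (34862602 to 34882100) and C3 (57203973 to 57228136). Cfp lies on chromosome X (20925535 to 20931524), Serping1 on chromosome 2 (84765360 to 84775429) and Cd55 on chromosome 1 (130439030 to 130462740), also on the minus strand. The promoters of C6, C7 and C3 are shown because C6 carried the largest difference between genotypes, C7 is its neighbour, and C3 is the component on which all routes converge. They come from RefSeq (GRCm38.p6), which held a promoter for 5 of the 9 genes, the others being Cfp and Cd55. Each runs 5′ to 3′ from 250 bases before the transcription start, and capitals mark matches on either strand to a motif that was searched.
C6, chr15:4726960-4727259, plus strand: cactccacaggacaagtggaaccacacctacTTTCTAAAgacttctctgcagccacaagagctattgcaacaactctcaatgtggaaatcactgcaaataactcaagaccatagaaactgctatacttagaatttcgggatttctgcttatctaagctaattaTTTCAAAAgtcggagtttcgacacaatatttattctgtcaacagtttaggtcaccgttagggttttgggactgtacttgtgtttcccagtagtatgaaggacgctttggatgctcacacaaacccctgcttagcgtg
C7, chr15:5063724-5064023, minus strand: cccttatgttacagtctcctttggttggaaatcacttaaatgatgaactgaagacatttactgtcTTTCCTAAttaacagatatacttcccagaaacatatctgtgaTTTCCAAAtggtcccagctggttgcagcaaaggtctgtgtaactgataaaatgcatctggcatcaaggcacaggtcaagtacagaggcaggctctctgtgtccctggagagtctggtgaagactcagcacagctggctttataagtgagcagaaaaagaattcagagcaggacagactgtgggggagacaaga
C3, chr17:57228087-57228386, minus strand: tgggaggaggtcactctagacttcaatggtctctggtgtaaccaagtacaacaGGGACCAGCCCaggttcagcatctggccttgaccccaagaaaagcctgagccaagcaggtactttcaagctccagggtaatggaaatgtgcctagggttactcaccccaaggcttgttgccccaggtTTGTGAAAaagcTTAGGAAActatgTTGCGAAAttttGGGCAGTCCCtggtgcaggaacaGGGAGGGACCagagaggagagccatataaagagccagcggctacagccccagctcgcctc
The motifs were GGG and CC with 5 bases of any kind between them, a loose form of the NF-kB site, GAAA and GAAA with any 2 bases between them, the core of the interferon-stimulated response element, and TTNNGNAA, a loose form of the C/EBP site. Where matches overlapped, their capitals run together. The first was present in 50.8% of all 32851 promoter windows of this length, the second in 3.44% and the third in 40.7%. C6 and C7 each held 2 matches, all to the loose C/EBP form. C3 held 9 matches counted over both strands, to the loose NF-kB and C/EBP forms. None of the 5 promoters held the interferon motif in this window. These loose forms are common, and a match describes the letters and not a bound site.

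The terminal pathway was present in this tissue only in part. C6, which joins C5b and starts the membrane attack complex, was at 19.3, 23.1, 11.01 and 10.7 CPM in knockout mice 1 to 4, against 32.9, 33.4, 55.1 and 67.9 CPM in wild-type mice 1 to 4. All 4 knockout mice lay below all 4 wild-type mice, and among the wild-type mice numbers 3 and 4 were higher than 1 and 2. The means were 16.03 ± 6.17 CPM in knockout mice and 47.3 ± 17.2 CPM in wild-type mice (SD, n = 4 each). The log2 fold change of knockout over wild type was -1.56 (standard error, SE, 0.333). Leaving out each mouse in turn gave -1.80 to -1.33, and -1.71 without knockout mouse 2 and wild-type mouse 3.

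C6 was the only one of the 9 genes whose groups did not overlap. Separation of this kind occurred in 1.44% of the 14493 genes tested, and in 0.821% the knockout mice were the lower ones. In the edgeR quasi-likelihood test with Benjamini-Hochberg adjustment over all genes, 0 of the 9 members passed an adjusted p of 0.05, beside 2 genes or 0.0138% of all genes. At an unadjusted p under 0.05 there was 1 member, C6, beside 2.23% of all genes in either direction and 1.06% lower in knockout mice. DESeq2 called 1 member, also C6, beside 0.131% of the 12987 genes to which it gave an adjusted p. The limma voom fit called 0 members and 0.0% of all genes. Because C6 was chosen on this contrast, these counts describe the list and are not evidence for it.

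Summed smooth muscle markers were also at 212 to 267 CPM in knockout mice and 274 to 741 CPM in wild-type mice, with none of the 5 markers at a log2 fold change above 0. Of these markers Acta2, encoding smooth muscle actin, separated the groups, at 107 to 135 CPM in knockout mice and 150 to 605 CPM in wild-type mice, while Tagln, Myh11, Cnn1 and Des overlapped. No marker of that list was at 0 in all libraries. On the mean log2 CPM of the list, wild-type mouse 1 was at 4.33, below all knockout mice (4.36 to 5.24), while its C6 level was above theirs. By summed CPM the same mouse, at 274 CPM, was above all knockout mice. Acta2 alone gave 183 CPM of that sum, and 605 of the 741 CPM in wild-type mouse 2. Of the endothelial markers 0 of 6 and of the mesothelial markers 1 of 8 had a log2 fold change above 0, with overlapping sums. Endothelial markers summed to 515 to 892 CPM in knockout mice and 585 to 896 CPM in wild-type mice. The part of any of these cells in the C6 difference was not tested.

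**Figure D1:**
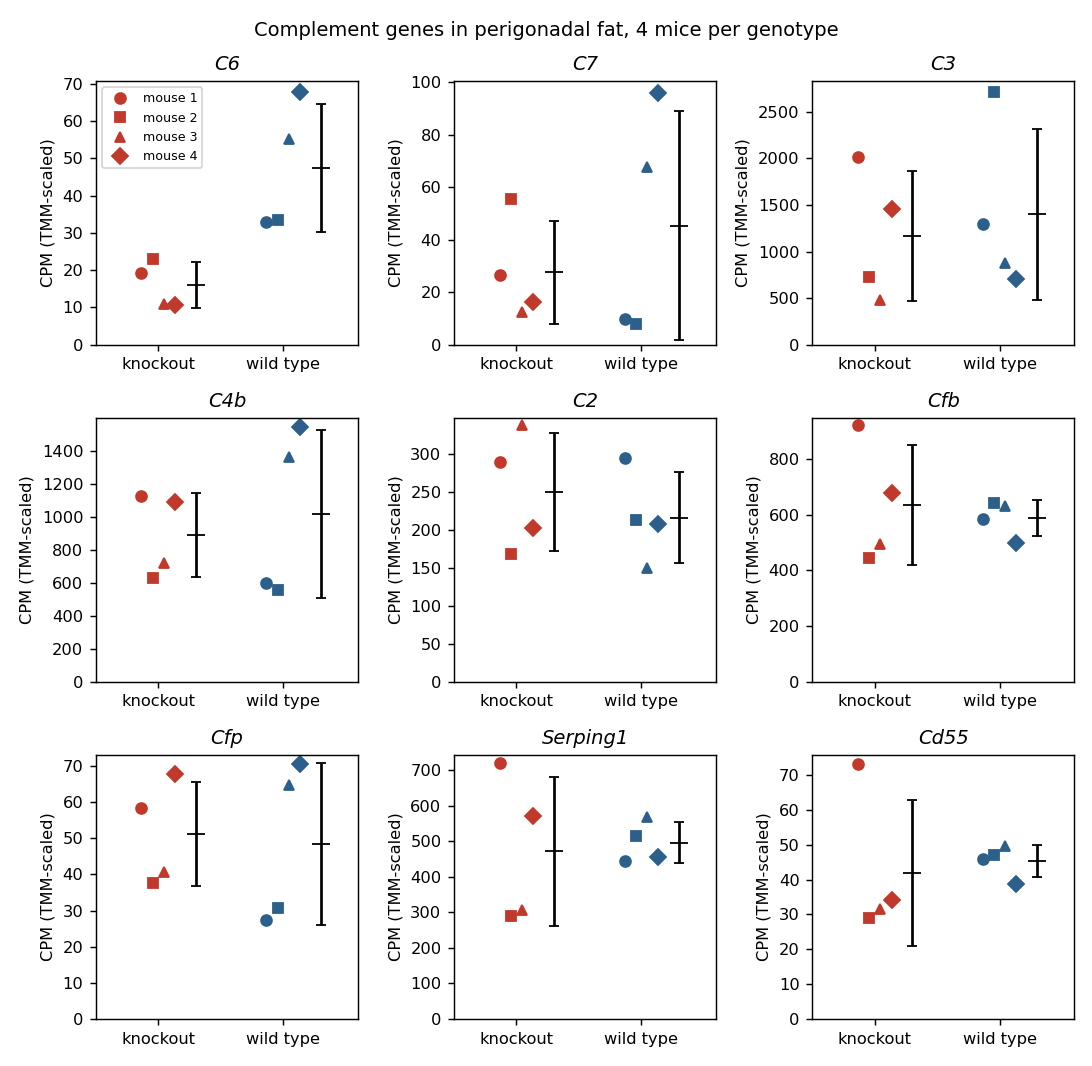
Level of each of the 9 complement genes in CPM (TMM-scaled, linear axes from 0), knockout mice left and wild-type mice right. Symbols are single mice, whose numbers are not known to pair the genotypes, and the bar gives the mean and SD over 4 mice. C6 is the only panel whose groups do not overlap, with knockout mice at 10.7 to 23.1 CPM and wild-type mice at 32.9 to 67.9 CPM.

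C7, which binds the C5b6 complex and lets it insert into membranes, varied more between mice than between genotypes. It was at 26.4, 55.5, 12.3 and 16.2 CPM in knockout mice, against 9.90, 7.92, 67.8 and 95.7 CPM in wild-type mice. The wild-type mice split into a low and a high pair, and all 4 knockout mice lay between those pairs. The highest mouse exceeded the lowest by 12.1-fold, a ratio reached by 1.74% of genes at 1 CPM or more, whose median ratio was 1.57. Its log2 fold change was -0.72 (SE 0.821), and leaving out 1 mouse at a time gave -1.32 to -0.05, the smallest without wild-type mouse 4. It was -1.05 without knockout mouse 2 and wild-type mouse 3.

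Of the other terminal components only C8g had enough reads to be tested. C8g, the gamma chain of C8, was at 3.16 ± 0.187 CPM in knockout mice and 3.00 ± 0.711 CPM in wild-type mice. Hc, the mouse gene for C5, had 2 to 12 counts per library, and C9, the pore-forming component, had 0 to 4. C8a and C8b, the other chains of C8, had at most 5 and 6 counts. In these libraries, C6 and C7 were thus read with 404 to 4568 counts while their partners C5, C8 alpha, C8 beta and C9 gave at most 12.

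C3, the source of the opsonin C3b, was among the most abundant members per exon length. It was at 2015, 723, 482 and 1457 CPM in knockout mice and at 1293, 2720, 872 and 710 CPM in wild-type mice. The groups overlapped, with knockout mouse 3 below and wild-type mouse 2 above all other mice. Knockout mice averaged 1169 ± 700 CPM and wild-type mice 1399 ± 914 CPM (SD, n = 4 each). Its log2 fold change was -0.26 (SE 0.537) and turned to 0.29 without wild-type mouse 2, the highest of all mice.

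C4b, the component cut by the C1s and MASP proteases, was at 1124, 627, 719 and 1090 CPM in knockout mice and at 602, 557, 1362 and 1546 CPM in wild-type mice. As with C7, wild-type mice 3 and 4 were high and 1 and 2 low, and the knockout mice lay between them. For C4b the log2 fold change was -0.19 (SE 0.372), and it was 0.11 without knockout mouse 2 and wild-type mouse 3. C4b has a near copy in C4a, with which 35.2% of the 50-base windows of its longest coding transcript are identical in the GENCODE M21 transcripts. Only 13 to 46 counts per library were assigned to C4a, and reads shared by this pair cannot be told apart in the counts.

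C2, which joins C4b in the classical C3 convertase, was at 290, 169, 338 and 203 CPM in knockout mice and at 295, 213, 150 and 208 CPM in wild-type mice. The groups overlapped, and the log2 fold change was 0.21 (SE 0.261). Leaving out 1 mouse at a time gave 0.026 (without knockout mouse 3) to 0.39 (without wild-type mouse 1), and 0.066 without wild-type mouse 3. Its paralog Cfb encodes factor B, the matching protease of the alternative pathway, and lies next to C2 on chromosome 17 on the same strand, with 87 bases between the genes. Cfb was at 922, 445, 494 and 678 CPM in knockout mice and at 584, 642, 630 and 498 CPM in wild-type mice. The wild-type mice lay inside the knockout range, and the log2 fold change was 0.11 (SE 0.228), or -0.13 without knockout mouse 1 and 0.28 without knockout mouse 2 and wild-type mouse 3. GENCODE M21 also holds a locus, Gm20547, whose transcripts share 58.0% of the 50-base windows of C2 and 81.4% of those of Cfb. It had no entry of its own in the count tables.

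Cfp encodes properdin, the protein that stabilises the alternative C3 convertase and is made by myeloid cells. It was at 58.4, 37.6, 40.6 and 67.8 CPM in knockout mice and at 27.4, 30.7, 64.6 and 70.5 CPM in wild-type mice. The high mice were numbers 1 and 4 among knockout mice and numbers 3 and 4 among wild-type mice, as for C4b. Cfp had a log2 fold change of 0.08 (SE 0.341), with a range of -0.11 to 0.32 when mice were left out in turn. It was 0.37 without knockout mouse 2 and wild-type mouse 3.

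Of the inhibitors, Serping1 encodes C1 inhibitor, which inactivates C1r, C1s and the MASP proteases. It was at 719, 291, 306 and 572 CPM in knockout mice and at 444, 516, 569 and 457 CPM in wild-type mice, with a log2 fold change of -0.07 (SE 0.290), or 0.17 without knockout mouse 2 and wild-type mouse 3. Cd55 encodes decay-accelerating factor, a membrane protein that dissociates C3 convertases. It was at 73.1, 28.9, 31.4 and 34.1 CPM in knockout mice and at 45.8, 47.0, 49.8 and 38.8 CPM in wild-type mice. Knockout mouse 1 lay above all others, and the other 3 knockout mice lay below all wild-type mice. Cd55 had a log2 fold change of -0.11 (SE 0.285), or -0.53 without knockout mouse 1 and 0.076 without knockout mouse 2 and wild-type mouse 3. For both inhibitors and for Cfb the wild-type mice lay close together, the highest exceeding the lowest by 1.28-fold to 1.29-fold, and the knockout mice apart, by 2.07-fold to 2.53-fold. That difference in spread was not tested.

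Levels of different genes were compared per exon length, as RPKM (CPM divided by exon length in kilobases). In wild-type mice the order was Serping1, C3, Cfb, C4b, C2, Cfp, Cd55, C7 and C6. Serping1 averaged 259 ± 115 RPKM in knockout mice and 273 ± 31.8 RPKM in wild-type mice (SD, n = 4 each). C3 averaged 228 ± 136 RPKM in knockout mice and 272 ± 178 RPKM in wild-type mice. The first 4 genes overlapped with their neighbours in the order. C4b was above C2 in 4 of 4 mice of each genotype, although the ranges overlapped. C2 was above Cfp in every mouse with no overlap, at 94.6 ± 29.4 against 33.5 ± 9.45 RPKM in knockout mice and 81.9 ± 22.5 against 31.7 ± 14.7 RPKM in wild-type mice. Cfp overlapped with Cd55, Cd55 with C7, and C7 with C6. Cd55, C7 and C6 averaged 16.6, 10.2 and 5.64 RPKM in knockout mice and 17.9, 16.7 and 16.7 RPKM in wild-type mice. Cd55 and C6 overlapped in wild-type mice only. In knockout mice the lowest Cd55 value was 11.4 RPKM and the highest C6 value 8.14 RPKM.

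The wider pathway was covered by 53 complement genes listed by role, the 9 members included, of which 41 could be tested. In the edgeR test 0 of the 41 passed, beside 0.0138% of all genes. C6 was the 1 gene at an unadjusted p under 0.05, beside 2.23% of all genes. DESeq2 also called 1 gene, C6, beside 0.131% of 12987 genes. Of the 41 genes the log2 fold change was positive for 22 and negative for 19, beside 7691 and 6802 of all 14493 genes. The median was 0.07, beside a median of 0.01 over all genes. Without the members the median was 0.12 over 32 genes, and for the 9 members it was -0.11.

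Initiation of the classical route was well represented. C1qa and C1qb, chains of the recognition protein C1q that macrophages make, averaged 155 ± 73.9 and 182 ± 113 CPM in knockout mice, against 127 ± 77.9 and 133 ± 79.6 CPM in wild-type mice. C1s, the protease that cuts C4 and C2, averaged 276 ± 93.7 CPM in knockout mice and 283 ± 33.1 CPM in wild-type mice. Of the 11 tested initiation genes 5 were higher and 6 lower in the knockout mean, and 0 passed, beside 0.0138% of all genes. The mannose-binding lectins Mbl1 and Mbl2 had at most 7 and 4 counts.

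Adipsin stood far above every other complement gene. Cfd was at 5481, 10491, 9644 and 7174 CPM in knockout mice and at 5847, 4888, 5797 and 11573 CPM in wild-type mice. The highest mouse of each genotype, knockout mouse 2 and wild-type mouse 4, was also the highest of its genotype for C6 and C7. The groups overlapped, and per length Cfd averaged 8881 ± 2485 RPKM in knockout mice and 7612 ± 3318 RPKM in wild-type mice. All 3 alternative pathway genes had a log2 fold change above 0, at most 0.22.

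Among the other regulators, Vtn, encoding vitronectin, averaged 13.2 ± 6.74 CPM in knockout mice and 12.8 ± 6.196 CPM in wild-type mice. Clu, encoding clusterin, averaged 154 ± 66.9 CPM in knockout mice and 194 ± 35.4 CPM in wild-type mice. Cd59a, encoding the membrane inhibitor of pore assembly, averaged 190 ± 73.1 CPM in knockout mice and 173 ± 50.6 CPM in wild-type mice. Cr1l, which encodes the rodent membrane regulator Crry, was nearly constant at 40.9 ± 3.19 CPM in knockout mice and 43.2 ± 2.02 CPM in wild-type mice. Cd59b, a copy of Cd59a, averaged 4.86 ± 1.22 CPM in knockout mice and 5.10 ± 0.568 CPM in wild-type mice. The copy of Cd55, listed as Daf2, had 45 counts in knockout mouse 2 and at most 2 in any other. It shares 13.3% of the 50-base windows of Cd55.

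Receptors of complement fragments were the role with the highest median. Among 9 tested receptor genes 8 were higher in the knockout mean (median log2 fold change 0.69), beside 7691 of all 14493 genes above 0. The other, Vsig4, averaged 1.14 CPM in knockout mice and 1.89 CPM in wild-type mice (log2 fold change -0.73, SE 0.422). Of the 9 genes 0 passed in edgeR, beside 0.0138% of all genes, and 0 in DESeq2, beside 0.131% of 12987 genes. An unadjusted p under 0.05 in edgeR was reached by 0, beside 2.23% of all genes. Itgb2, the beta chain of complement receptors 3 and 4, was at 84.1, 25.3, 30.0 and 157 CPM in knockout mice and at 23.1, 30.2, 61.2 and 36.0 CPM in wild-type mice. Itgam, the alpha chain of complement receptor 3, averaged 47.3 ± 31.0 CPM in knockout mice and 29.4 ± 10.2 CPM in wild-type mice. Knockout mice 1 and 4 were the high ones in both genes. Cd93, an endothelial and myeloid surface protein once taken for a C1q receptor, averaged 124 ± 10.5 CPM in knockout mice and 111 ± 33.5 CPM in wild-type mice. The macrophage markers were high in the same mice, with a log2 fold change above 0 for all 8 and a summed level of 713 to 3203 CPM in knockout mice and 578 to 1597 CPM in wild-type mice. None of these markers was at 0 in all libraries, and their part in the receptor values was not tested.

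**Figure D2:**
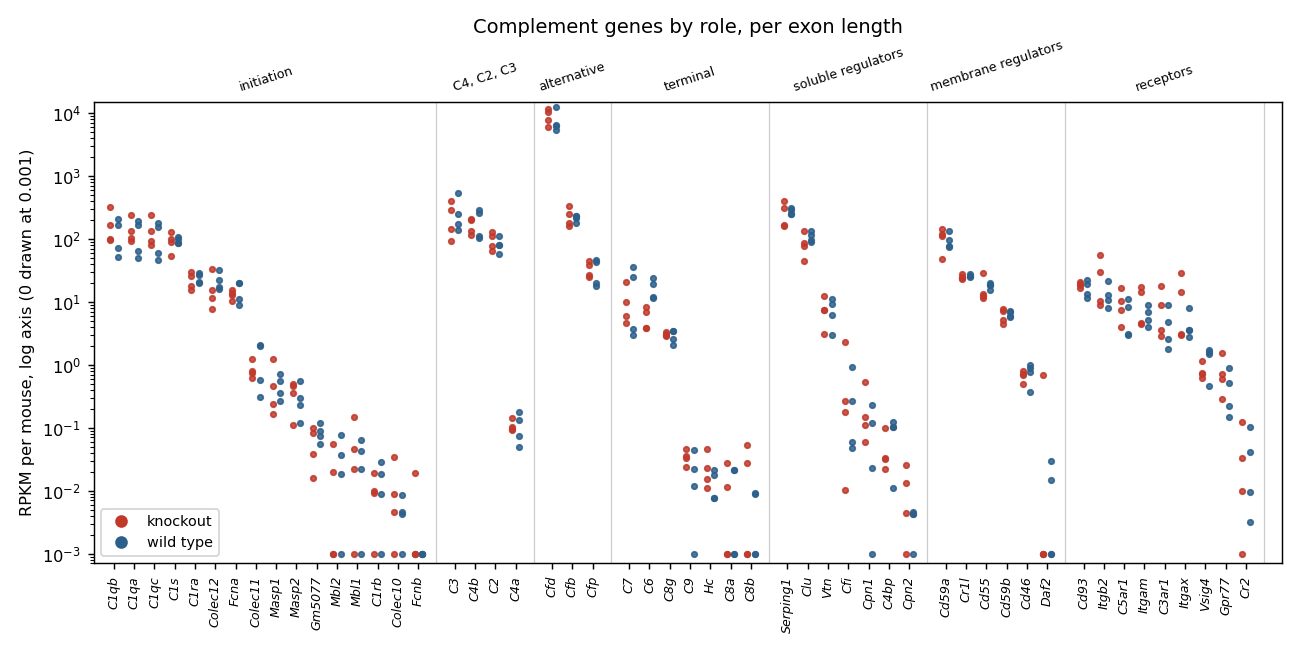
Level per exon length (RPKM, log axis, a value of 0 drawn at 0.001) of the listed complement genes in every mouse, with 1 listed gene not drawn, knockout left of wild type, grouped by role and sorted by the wild-type mean within a role. Cfd is highest, and of the terminal pathway C7, C6 and C8g lie above the other 4 genes.

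Variation between mice of the same genotype is independent of the contrast that chose the genes. It was followed as the deviation of log2 CPM from the genotype mean in 36 pairs of members, each tested by an exact permutation of mice within genotypes, two-sided. The smallest possible p was 0.00174. In 22 pairs Pearson's r was above 0 and in 14 below. No pair passed an adjusted p of 0.05, and 6 pairs had an unadjusted p under 0.05. The share among pairs of other genes was not determined, so this count is not read as particular to complement genes.

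The pairs with an unadjusted p under 0.05 were C6 with C7, C4b with Cfp, Cfb with Serping1, Cd55 and C3, and Serping1 with Cd55. Cfb and Cd55 had r = 0.910 (exact permutation p = 0.00347, adjusted p = 0.0781) and Spearman's rho = 0.833 (exact permutation p = 0.0139, adjusted p = 0.292). C6 and C7 had r = 0.913 (exact permutation p = 0.00694, adjusted p = 0.0781) and rho = 0.643 (exact permutation p = 0.0208, adjusted p = 0.292). In both genotypes the C6 and C7 levels of the same mice were high together, in knockout mice 1 and 2 and in wild-type mice 3 and 4. Serping1 and Cd55 had r = 0.813 (exact permutation p = 0.00694, adjusted p = 0.0781) and rho = 0.810 (exact permutation p = 0.0243, adjusted p = 0.292).

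Cfb and Serping1 had r = 0.952 (exact permutation p = 0.00868, adjusted p = 0.0781) and rho = 0.952 (exact permutation p = 0.0486, adjusted p = 0.350). C4b and Cfp had the highest r of all, 0.982 (exact permutation p = 0.0208, adjusted p = 0.150), with rho = 0.952 (exact permutation p = 0.0486, adjusted p = 0.350). C3 and Cfb had r = 0.784 (exact permutation p = 0.0365, adjusted p = 0.219) and rho = 0.738 (exact permutation p = 0.0625, adjusted p = 0.375).

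Without the 2 mice farthest from the median of the first gene of a pair, r was 0.704 for Cfb with Cd55, 0.835 for C6 with C7, 0.869 for Cfb with Serping1, 0.982 for C4b with Cfp and 0.686 for C3 with Cfb. It was 0.455 for Serping1 with Cd55, whose relation rested on the mice left out, knockout mice 1 and 2. Without knockout mouse 2 and wild-type mouse 3, the 6 pairs kept an r of 0.753 to 0.974 over 6 mice. C2 stood apart, with r between -0.61 and 0.27 to the other 8 genes. Its neighbour Cfb was among the weakly related ones, at 0.17.

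**Figure D3:**
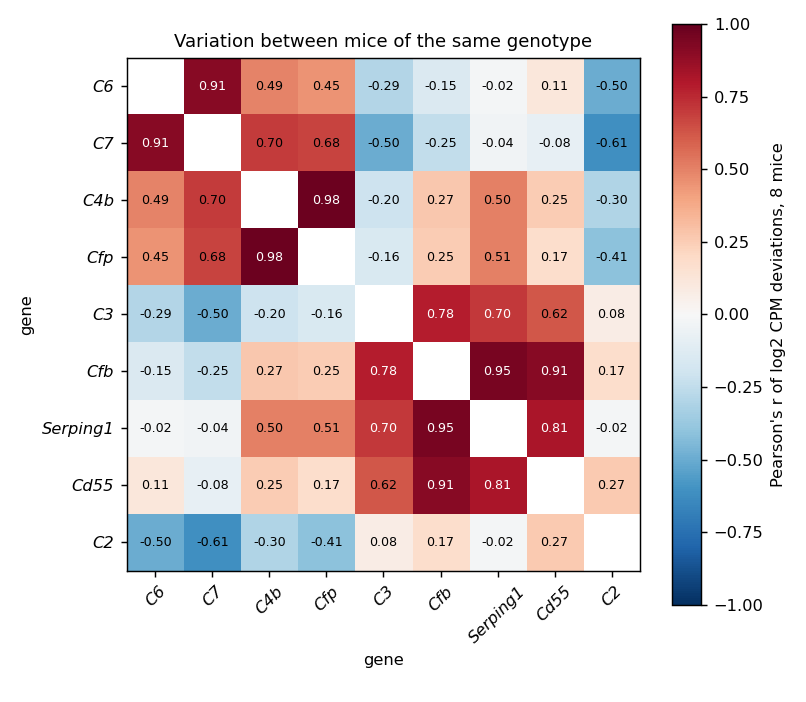
Pearson's r between members, from deviations of log2 CPM from the genotype mean over 8 mice (color from -1 to 1, value in each square). C6 with C7, C4b with Cfp, and Cfb with Serping1 and Cd55 have r of 0.91 to 0.98. No pair passed an adjusted p of 0.05, which 1 pair alone could not do even at the smallest possible p.

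The members were also compared with the mean log2 CPM of cell type markers, a comparison chosen after the values were seen. There were 54 relations of 9 genes with 6 marker lists, and 0 passed an adjusted p of 0.05. Here too 1 relation alone could not pass at the smallest possible p of 0.00174. The 0 is therefore not read as a lack of relation. C2 and adipocyte markers had r = 0.986 (exact permutation p = 0.00347, adjusted p = 0.0938) and rho = 0.976 (exact permutation p = 0.00694, adjusted p = 0.188). The r stayed at 0.979 without the 2 farthest mice. C3 and mesothelial markers had r = 0.932 (exact permutation p = 0.00347, adjusted p = 0.0938) and rho = 0.952 (exact permutation p = 0.00347, adjusted p = 0.188), and r = 0.852 without the 2 farthest mice. Cfb and mesothelial markers had r = 0.705 (exact permutation p = 0.0642, adjusted p = 0.332) and rho = 0.714 (exact permutation p = 0.0729, adjusted p = 0.375). Their r was 0.840 without the 2 farthest mice and 0.920 without knockout mouse 2 and wild-type mouse 3. Mesothelial markers summed to 123 to 912 CPM in knockout mice and to 195 to 1050 CPM in wild-type mice, and none was at 0 in all libraries.

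Cfp and macrophage markers had r = 0.881 (exact permutation p = 0.0122, adjusted p = 0.219) and rho = 0.714 (exact permutation p = 0.0174, adjusted p = 0.234), and r = 0.941 without the 2 farthest mice. Serping1 and fibroblast and progenitor markers had r = 0.873 (exact permutation p = 0.0174, adjusted p = 0.234) and rho = 0.881 (exact permutation p = 0.0278, adjusted p = 0.250), and r = 0.807 without the 2 farthest mice. Serping1 had the same rho of 0.881 with macrophage markers, with r = 0.763 and r = 0.804 without the 2 farthest mice. C4b had r = 0.831 with macrophage markers (exact permutation p = 0.0417, adjusted p = 0.332). For fibroblast and progenitor markers its r was 0.683 (exact permutation p = 0.0434, adjusted p = 0.332). The r values of Serping1 and C4b thus did not single out 1 list, and none of these relations passed after adjustment. C6 and smooth muscle markers had r = 0.667 (exact permutation p = 0.0660, adjusted p = 0.332) and rho = 0.810 (exact permutation p = 0.0139, adjusted p = 0.234), and r = 0.426 without the 2 farthest mice. C6 and fibroblast and progenitor markers had r = 0.456 (exact permutation p = 0.321, adjusted p = 0.738) and rho = 0.238 (exact permutation p = 0.632, adjusted p = 0.923). Their r was 0.854 without the 2 farthest mice and 0.708 without knockout mouse 2 and wild-type mouse 3. Without knockout mouse 2 and wild-type mouse 3 the r of C6 with smooth muscle markers was 0.454, that of C2 with adipocyte markers 0.982 and that of C3 with mesothelial markers 0.964.

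**Figure D4:**
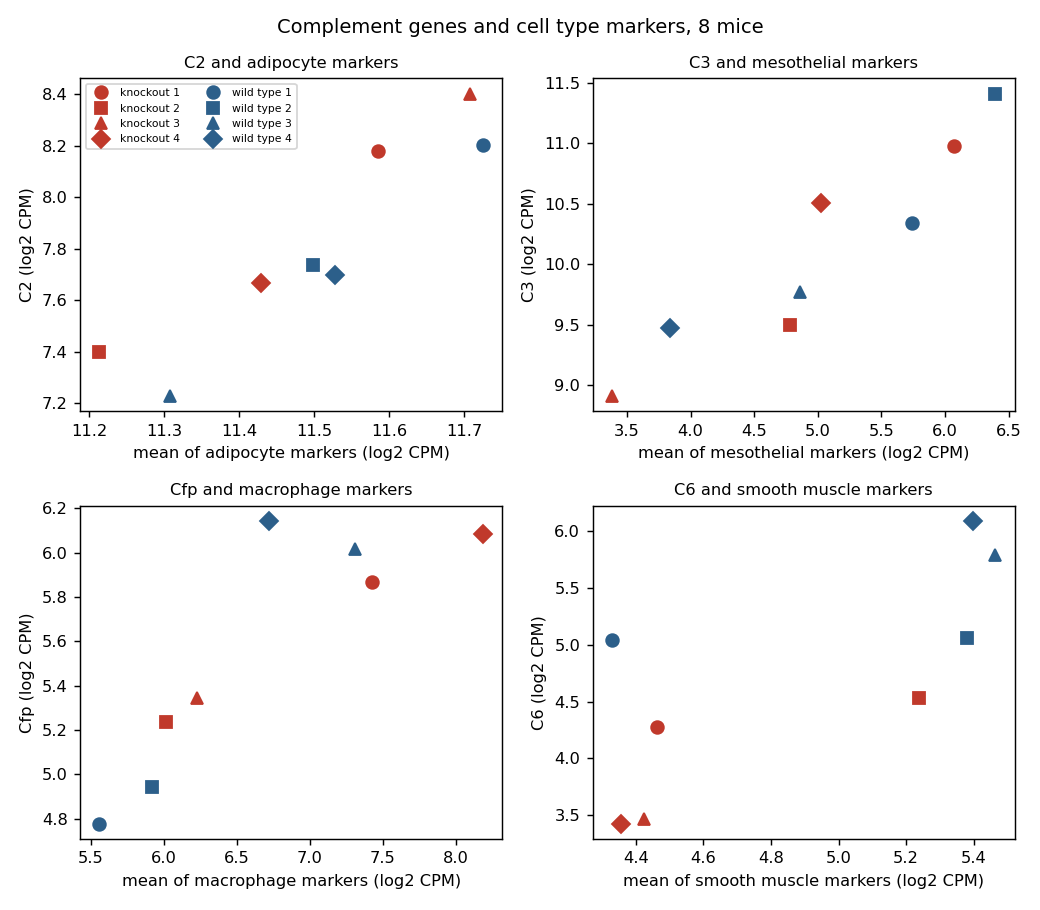
Log2 CPM of C2, C3, Cfp and C6 against the mean log2 CPM of adipocyte, mesothelial, macrophage and smooth muscle markers in each of the 8 mice. Knockout mice are red and wild-type mice blue, and equal symbols mark equal numbers, which are not known to pair the mice. C2 and C3 are higher where their marker lists are higher (r of 0.986 and 0.932 after removing the genotype means). Wild-type mouse 1 has the lowest mean of smooth muscle markers (4.33) and more C6 than any knockout mouse. Its summed smooth muscle markers, 274 CPM, of which Acta2 gives 183 CPM, are above those of all knockout mice (212 to 267 CPM).

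Genes whose deviations over the 8 mice were most like those of a member were taken from 11905 named genes at a mean of 1 CPM or more. As the best of so many they have a high r by choice, and no test is given. For C6 they were Tab2 (r = 0.973) and Nt5e (r = 0.972), and for C7 Aldh1a3 (r = 0.992) and Fxyd2 (r = 0.988). For C3 they were Tmem151a (r = 0.991) and Rpp25 (r = 0.985), for C4b Plekhf1 (r = 0.987) and Cfp (r = 0.982), and for C2 Cib2 (r = 0.993) and Pde4dip (r = 0.988). For Cfb they were Dlg2 (r = 0.988) and Fibin (r = 0.982), and for Cfp Gmfg (r = 0.994) and Sppl3 (r = 0.987). For Serping1 they were Prrx2 (r = 0.992) and Tmem165 (r = 0.990), and for Cd55 Insc (r = 0.985) and Csgalnact2 (r = 0.981). The nearest gene of C4b that is itself a member was Cfp, and for no other member was a complement gene among the nearest pair.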

How the data were processed

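For each mouse the authors deposited 1 table of raw read counts, whole numbers listed by gene symbol. Per the submitters' processing notes the tools were STAR 2.4.0g1, FastQC 0.11.2, Cufflinks, featureCounts and edgeR, with the mm10 build, and no role is given for any of them. Whether counting used strand is not stated in the labels. Exon lengths and positions came from the authors' deposited merged annotation, in which no member shared exonic bases with another symbol.

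The genes, lists and marker lists were chosen with earlier results of these data known. The low-count filter (filterByExpr, edgeR 4.0.16, R 4.3.3) left 14493 genes. Libraries were scaled by TMM (factors 0.966 to 1.05) and compared with edgeR quasi-likelihood tests (robust fit, no covariate) and Benjamini-Hochberg adjustment over all genes, with a threshold of 0.05. The SE is the one the F statistic implies. CPM use TMM-scaled library sizes, and log2 CPM a prior count of 2. No replicates agreed within sampling noise (smallest chi-square per degree of freedom 66.3). The edgeR p-values weigh a genotype difference against the spread between these mice, estimated in part across genes. The common biological coefficient of variation was 0.301, so mice rather than depth limited precision.

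Named besides the members are, per role, up to 3 genes with the highest mean CPM, the 2 genes with the highest r to each member, and markers. Others (Mbl1, Mbl2, C8a, C8b, Daf2, Vsig4) were chosen after their values were seen. The procedure was tested on simulated data. The alternatives tried were scaling by total counts or by median ratios, no or a stricter filter (1 CPM in 4 libraries), DESeq2 1.42.0, limma 3.58.1 voom, a replicate block, and mice left out. The targeted gene and 1 gene of the complement list are not reported here, and the counts over the list include the listed one.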

Additional observations from a re-analysis of the deposited data

How the results depend on the processing

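The edgeR test called 2 genes, and DESeq2 17. No gene was called with total counts, no low-count filter, limma voom, a replicate block or the epithelial-gene pair left out (0 each), or without any single mouse (0 to 0). DESeq2 called 1 member and 1 gene of the complement list, C6, with an adjusted p of 0.00371; over the alternatives that adjusted p ranged from 0.00371 to 1.00. Without each mouse in turn, 0 members and 0 listed genes passed. With no genotype mean removed, 2 pairs passed, Cfb with Serping1 (r = 0.909) and C4b with Cfp (r = 0.952). There all mice were permuted together, with a smallest p of 2.48e-05. Both r were lower than with the genotype mean removed (0.952 and 0.982), so the passes do not show a stronger relation. With total counts 0 pairs passed, at a smallest p of 0.00174 with which 1 pair alone could not pass. The 0 pairs without single mice (smallest p 0.00694) or without the epithelial-gene pair (smallest p 0.0278) say nothing about stability, since so few arrangements could hardly pass after adjustment. C6, C7 and C2 kept their direction in all 16 alternatives.

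The log2 fold change turned to 0.11 for C4b, 0.17 for Serping1 and 0.076 for Cd55 without knockout mouse 2 and wild-type mouse 3. Leaving out 1 mouse at a time gave -0.66 to 0.29 for C3, -0.39 to 0.080 for C4b, 0.026 to 0.39 for C2, -0.13 to 0.24 for Cfb, -0.11 to 0.32 for Cfp, -0.35 to 0.10 for Serping1 and -0.53 to 0.023 for Cd55. The cause was not tested. C7 was at -0.27 with the replicate block and -0.19 in limma voom. The labels do not say whether equal numbers pair the mice. Deviations of same-numbered mice correlated at 0.12, -0.02, -0.32 and -0.02 across genes. The replicate block moved the count of called genes to 0, but so did other alternatives, so it does not decide about pairing. Components with at most 12 counts a library could not be compared at this depth.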

Other observations

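Factor I, the protease that degrades C3b and C4b and is encoded by Cfi, had 28, 234, 1 and 18 counts in knockout mice 1 to 4 and 6, 5, 99 and 26 counts in wild-type mice 1 to 4. Knockout mouse 2 and wild-type mouse 3 had the highest counts within their genotypes, and they are the libraries with epithelial and ciliated cell genes. The log2 fold change of Cfi was 1.09 (SE 1.34) over all mice, and its value without those libraries is not given. Cfi was chosen after its values were seen, and the part of those cells was not tested.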
